A study of Rattus norvegicus with 18 samples.

Results

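Transcript levels in the adrenal glands of stroke-prone spontaneously hypertensive rats (SHRSP) were compared with those of spontaneously hypertensive rats (SHR) at 6 weeks of age. The comparison takes the 3 arrays labelled SHRSP and the 3 labelled SHR at this age, 6 of the 18 arrays in the series. The arrays were assigned by their strain and age labels, and the comparison was chosen with earlier results of these data known. The other 12 arrays held SHRSP and SHR at 3 weeks, and the normotensive strain WKY at 6 and at 3 weeks, with 3 arrays to a group. Per the labels, no treatment was given, and each array carried total RNA of adrenal glands labelled with the dye Cy3. The 3 arrays of a group are called biological replicates in the labels, which give neither the sex of the rats, the number of animals behind a sample, the colony nor the hour of collection. In whole glands, fewer cells of a type and less RNA per cell cannot be told apart.

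The adrenal cortex makes aldosterone in its outer zone and corticosterone below it, both from cholesterol that is taken up from lipoproteins or made in the cell, under the control of angiotensin II and of the pituitary hormone ACTH. The chromaffin cells of the medulla make adrenaline and noradrenaline. ACTH and stress switch on immediate early genes in the gland within minutes, and corticosterone itself raises genes such as Fkbp5 through the glucocorticoid receptor. SHR develop high blood pressure with age without any treatment, and SHRSP, bred from them, reach higher pressures and suffer strokes.

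On the 6 arrays, between 77.8% and 83.5% of the spots lay well above background and none was saturated. After filtering, 20868 genes were tested. Levels below are log2 values relative to the 75th percentile of their own array, so a level compares arrays for 1 probe and not one gene with another. Differences are SHRSP minus SHR with their standard errors from limma, and a gene is called where its Benjamini-Hochberg adjusted p was under 0.05. The steroid genes Cyp21a1, Cyp11b1 and Star and the chromaffin genes Th, Dbh and Pnmt were well above background on all 6 arrays.

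For many genes the difference between the 2 hypertensive strains did not have the same sign at both ages. The largest differences at 6 weeks had the other sign at 3 weeks: of the 7 genes called at both ages and at least 8-fold apart at both, all 7 had opposite signs, and so had 22 of the 25 that were at least 4-fold apart. Vegfb, for example, stood well above background on 0 of 3 SHRSP arrays at 6 weeks and 0 of 3 SHR arrays at 3 weeks, and on the other 6 arrays of these strains. Exchanging the names SHRSP and SHR at 1 of the ages would give these 22 genes a single direction. Of all 732 genes called at both ages, 387 had the same sign, and the exchange would give those opposite signs. Across all genes tested, the differences at the 2 ages had a Pearson r of -0.19. Between 3 and 6 weeks, 212 genes in SHRSP, 239 in SHR and 64 in WKY were called and at least 4-fold apart. Across the names, this count was 251 for SHRSP at 6 weeks against SHR at 3 weeks. For SHR at 6 weeks against SHRSP at 3 weeks it was 168. No test was made between these counts. Whether arrays were exchanged was not tested, and the labels do not settle it. SHRSP and SHR therefore mean here the arrays so labelled, and the direction of every strain difference rests on the labels at 6 weeks. A fit of the 6 arrays alone, without any 3-week array, called 1218 genes, 586 higher and 632 lower in SHRSP, and 1150 of them were also called, with the same sign, in the fit of all 18 arrays used below.

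The probes behind 2 of the largest differences are shown because each gene was measured by this 1 probe, so that its values speak for these 60 bases. Serpinc1, Agtrap, Uts2 and Vegfb were also measured by 1 probe each, and the same limit holds for their values. Ephx2 encodes soluble epoxide hydrolase, and its probe lies on the rat assembly rn4 at chr15:45535737-45538220, an interval longer than the probe, so the probe crosses an intron. Hba-a3 encodes a haemoglobin alpha chain, and its probe lies at chr10:15559461-15559520. Both are printed as in the array files, 5′ to 3′, with no base in capitals, and both lie on the minus strand of the file's coordinates.
Ephx2 probe: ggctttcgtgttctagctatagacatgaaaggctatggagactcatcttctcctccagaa
Hba-a3 probe: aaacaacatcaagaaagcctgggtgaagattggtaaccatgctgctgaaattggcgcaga

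At 6 weeks, 3117 genes were called, 14.9% of those tested, with 1405 higher (6.73%) and 1712 lower (8.2%) in SHRSP. At least 2-fold differences numbered 513 (2.46% of genes tested), of which 232 were higher and 281 lower, and at least 4-fold differences numbered 77, of which 27 were higher and 50 lower. The 3 SHRSP and 3 SHR arrays did not overlap for 6235 genes (29.9%), among them 3048 of the called genes. The median difference of all genes tested was -0.11 at 6 weeks and 0.09 at 3 weeks. After quantile normalization the split of calls was 1632 higher and 1265 lower, with a median of all genes of -0.02, so the excess of lower calls depends on how arrays are scaled. The arrays lay on several slides: slide 2 held 1 SHRSP and 1 SHR array, slide 5 held 1 SHRSP and 2 SHR arrays, and the other SHRSP array lay on slide 3. The median difference of all genes was -0.11 within slide 2 and -0.06 within slide 5, and with slide as a block in the fit 3952 genes were called, 1537 higher and 2415 lower.

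Serpinc1, which encodes antithrombin, a plasma inhibitor of clotting made mainly by the liver, showed the largest rise. Its level was 3.99, 4.15 and 4.18 on the SHRSP arrays, against -5.28, -5.69 and -5.61 on the SHR arrays, a difference of 9.63 ± 0.79 (adjusted p = 3.76e-06). Hba-a3 was at -2.0, -1.65 and -2.29 in SHRSP, against -8.22, -8.66 and -8.35 in SHR, with 0 of 3 SHR arrays well above background. This puts Hba-a3 at least 44.6-fold higher in SHRSP (adjusted p = 4.36e-08). Bounds of this kind divide the brighter group's mean by a floor, which on each dim array is the dimmest signal called well above background, or the signal of the probe itself where that is higher. Other globin genes did not follow: Hba-a1 differed by -0.02 ± 0.12 and Hbb by -0.02 ± 0.11, and neither was called.

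Agtrap, whose product binds the angiotensin II type 1 receptor and promotes its internalisation, was at 0.62, 0.63 and 0.50 in SHRSP, against -4.41, -4.74 and -5.15 in SHR, a difference of 5.35 ± 0.16 (adjusted p = 4.35e-11). Ephx2, whose enzyme breaks down vasodilator epoxides of arachidonic acid, was at -3.77, -3.74 and -3.97 in SHRSP, against -8.38, -8.34 and -9.00 in SHR, where no array was well above background. Ephx2 was thus at least 12.4-fold higher in SHRSP (adjusted p = 3.25e-07). Uts2, the gene of the vasoactive peptide urotensin 2, was at 1.62, 1.92 and 1.91 in SHRSP, against -1.99, -2.64 and -2.15 in SHR, a difference of 4.08 ± 0.41 (adjusted p = 2.19e-05). None of these 5 genes came near an overlap between the strains.

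The next rises were smaller. Lilrb3l and Lilrc2, members of the leukocyte immunoglobulin-like receptor family, were not well above background on any SHR array and were at least 5.98-fold and at least 1.85-fold higher in SHRSP. Related receptor genes may share signal at such probes, and Lilrc2 was no longer called after normexp background correction (adjusted p = 0.0542). Cbs, which encodes the first enzyme of transsulphuration from homocysteine to cysteine, differed by 2.51 ± 0.32 (adjusted p = 0.000144) and was at -1.32, -2.18 and -2.21 in SHRSP, against -4.26, -4.66 and -4.32 in SHR. Haghl, a relative of the glyoxalase gene Hagh, differed by 2.97 ± 0.35 (adjusted p = 7.86e-05), Phldb3 by 2.52 ± 0.22 (adjusted p = 7.74e-06), and Perm1, a regulator of oxidative metabolism in muscle, by 2.53 ± 0.48 (adjusted p = 0.00266). Haghl and Phldb3 were each well above background on 1 of the 3 SHR arrays. Aspg, an asparaginase gene, differed by 2.52 ± 0.71 (adjusted p = 0.0267), and it was not called without SHRSP replicate 2 or 3, without SHR replicate 1, after normexp or in the 6 arrays alone, with adjusted p between 0.0641 and 0.168.

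The largest fall was in Vegfb, which encodes vascular endothelial growth factor B. It was at -9.97, -9.67 and -9.18 on the SHRSP arrays, none well above background, against 0.73, 0.67 and 0.64 on the SHR arrays, at least 406-fold lower in SHRSP (adjusted p = 8.69e-14). Its relative Vegfa, the main angiogenic member of the family, differed by only -0.40 ± 0.11 (adjusted p = 0.02), a call that was lost after quantile normalization, in the 6 arrays alone or without SHRSP replicate 1 or 2 or SHR replicate 2 or 3, with adjusted p between 0.0575 and 0.168.

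Hspa1b, an inducible heat shock protein gene, was at -2.91, -2.80 and -3.07 in SHRSP, against 2.66, 2.69 and 2.08 in SHR, a difference of -5.41 ± 0.50 (adjusted p = 1.12e-05). Its near-identical neighbour Hspa1a may contribute to this signal. The other Hspa1b probe differed by -0.50 and was not well above background on any of the 6 arrays. Nr4a3, an orphan nuclear receptor and immediate early gene, was at -3.20, -3.71 and -3.49 in SHRSP, against 0.92, 0.55 and 0.93 in SHR (-4.27 ± 0.87, adjusted p = 0.00404). On the WKY arrays of the same age these stress-inducible genes were spread widely: Nr4a3 was at -3.42, 1.11 and 1.46 and Hspa1b at -0.46, 2.02 and 2.0. Replicate 1 stood apart from the other 2 WKY arrays, which do not enter the difference between SHRSP and SHR but do enter the shared estimate of the spread.

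Stard4, a cytosolic cholesterol carrier, was at 0.25 or below on the 3 SHRSP arrays, against 3.01, 2.93 and 2.83 in SHR (-2.86 ± 0.11, adjusted p = 8.36e-10), and its other probe differed by -3.34. Ell2, an elongation factor of RNA polymerase II, was at -1.87, -1.73 and -2.05 in SHRSP, against 1.05, 1.06 and 1.22 in SHR (-2.99 ± 0.32, adjusted p = 3.29e-05). The Notch target Hes1 differed by -2.86 ± 0.34, and Lrrc58 by -2.79 ± 0.41 (adjusted p = 8.78e-05 and 0.000429). The AP-1 subunit gene Fosl1 and the kinase genes Sbk2 and Dyrk3 were also among the 12 largest falls, not all of which are reported here.

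Fosl1 was not well above background on any SHRSP array and was at least 2.78-fold lower there (adjusted p = 0.0136). Sbk2 was at -10.26, -9.48 and -8.63 in SHRSP, none well above background, against -6.72, -6.23 and -6.09 in SHR (adjusted p = 1.25e-05), and its other probe differed by -0.82. Dyrk3 was even in SHRSP, at -5.09, -5.05 and -5.22, and uneven in SHR, at -3.11, -2.09 and -0.01 (-3.38 ± 0.88, adjusted p = 0.0177). The Dyrk3 call was lost without SHR replicate 3, with slide as a block or in the 6 arrays alone, with adjusted p of 0.0866, 0.0528 and 0.0534. That of Fosl1 was lost without SHRSP replicate 2 or SHR replicate 3 (adjusted p = 0.0564 and 0.0563).

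The same strain comparison at 3 weeks called 1650 genes (7.91%), 985 higher (4.72%) and 665 lower (3.19%) in SHRSP, from arrays that the 6-week comparison does not use. Among the 732 genes called at both ages, 345 had opposite signs and 387 the same sign. The share of opposite signs was larger among larger differences, with 69 of the 100 genes at least 2-fold apart at both ages and 22 of the 25 at least 4-fold apart. Of these 25 genes called at both ages, only Hspa1b, Tent5c and MGC94891 had the same sign at both. They were named with their values known, as was XM_001058955, the only one of the 7 genes at least 8-fold apart at both ages that carries no symbol. Tent5c, a poly(A) polymerase gene, differed by -2.57 ± 0.45 at 6 weeks and by -2.69 ± 0.45 at 3 weeks.

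**Figure D1:**
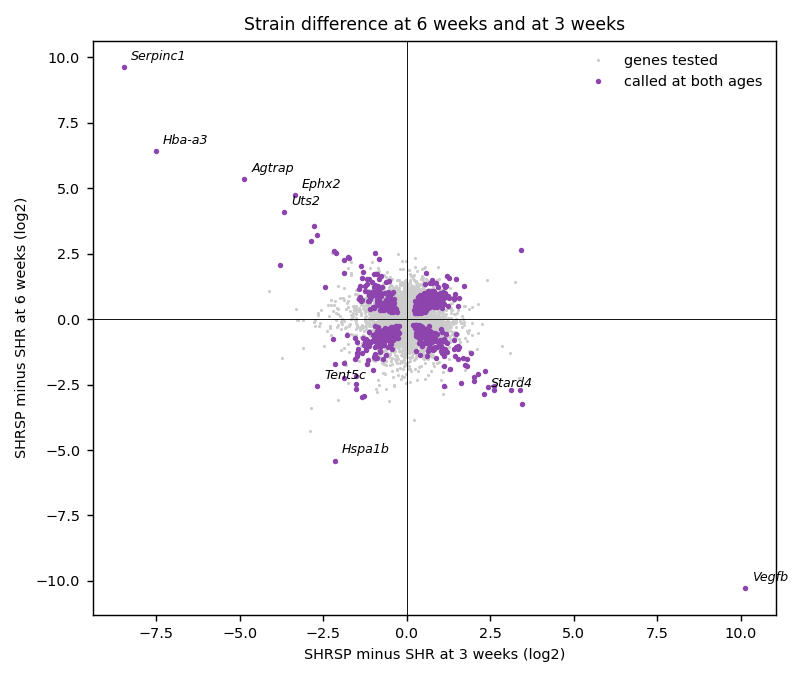
Each point is a gene, with the SHRSP minus SHR difference at 6 weeks on the y axis and at 3 weeks on the x axis, both log2. Purple points are the 732 genes called at both ages. Those farthest from the centre lie in the upper left and lower right, where the signs are opposite, and Hspa1b and Tent5c lie in the lower left.

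The 2 ages were compared directly by the strain difference at 6 weeks minus that at 3 weeks. This called 2483 genes (11.9%), 925 positive (4.43%) and 1558 negative (7.47%), of which 1570 were also called at 6 weeks. After quantile normalization the split was 1069 positive and 1087 negative, so the excess of negative calls depends on how arrays are scaled. All 12 of the largest rises at 6 weeks were below 0 at 3 weeks, 10 of them called there, and all 12 were called between the ages. Of the 12 largest falls, 4 were above 0 at 3 weeks, 3 of them called there, while 3 others were called lower at both ages, and 9 of the 12 were called between the ages. Hspa1b and Ell2 were among those that fell at both ages, by 2.16 ± 0.50 and 1.35 ± 0.32 at 3 weeks.

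At 3 weeks the arrays labelled SHRSP held Serpinc1 at -7.07, -3.63 and -8.35, against 1.93, 2.88 and 1.55 on those labelled SHR, so that the difference was -8.47 ± 0.79. Hba-a3 was at least 83.0-fold lower in SHRSP at 3 weeks, and Agtrap, Uts2 and Ephx2 differed there by -4.86 ± 0.16, -3.68 ± 0.41 and -3.35 ± 0.30. Vegfb was at 0.43, 0.60 and 0.52 in SHRSP at 3 weeks, against -9.46, -10.01 and -9.35 in SHR, at least 352-fold higher. Zfp597, a zinc finger gene, was even within every group: -4.71, -4.80 and -4.85 in SHRSP at 6 weeks, against -2.03, -2.19 and -2.01 in SHR, and -1.98, -1.99 and -1.89 in SHRSP at 3 weeks, against -4.95, -5.11 and -5.13 in SHR. Its strain difference thus lay at -2.71 ± 0.08 at 6 weeks and 3.12 ± 0.08 at 3 weeks. Stard4 differed by 2.31 ± 0.11 at 3 weeks, Nfe2l3, a stress-responsive transcription factor gene, by 2.62 ± 0.21 against -2.71 ± 0.21 at 6 weeks, and Serhl2 by 2.62 ± 0.14 against -2.54 ± 0.14.

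**Figure D2:**
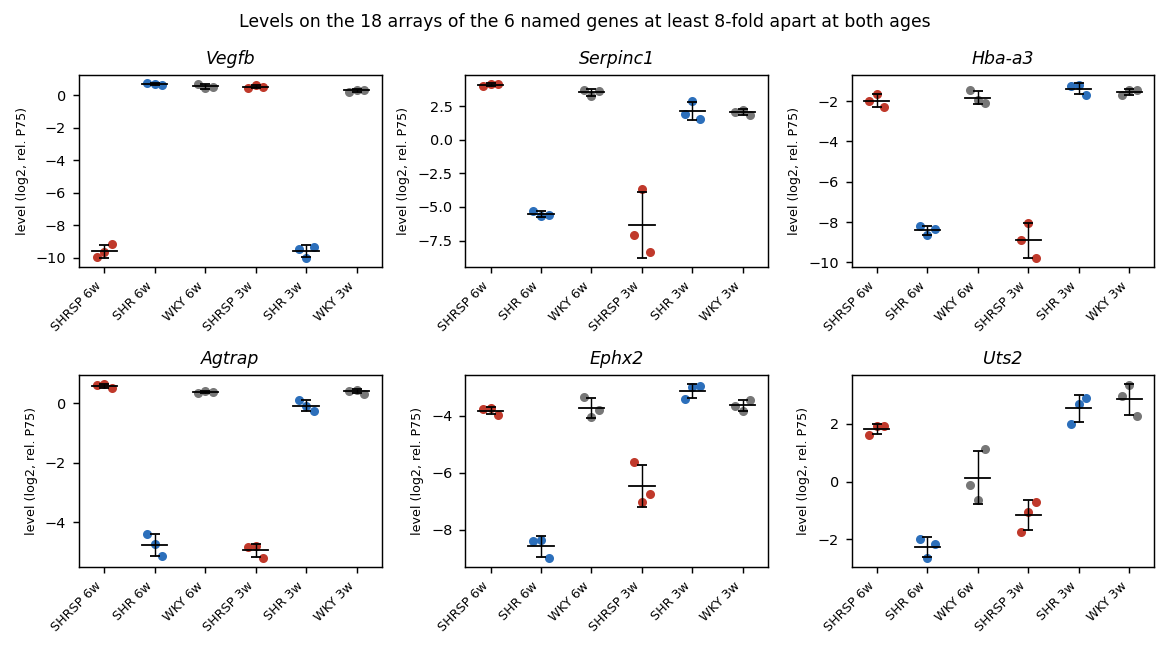
Levels of 6 genes on the 18 arrays (y axis, log2 relative to the array's 75th percentile) for SHRSP, SHR and WKY at 6 weeks and then at 3 weeks. Points are arrays, horizontal lines group means and bars 1 SD. At each age 1 of the 2 hypertensive strains lies far below WKY, and it is not the same label at the 2 ages.

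Set beside WKY at 6 weeks, the 2 strains took different places for these genes. The 2 comparisons share the WKY arrays, and no test was made between them. SHRSP lay close to WKY and SHR far below it for Serpinc1 (0.57 ± 0.79 and -9.06 ± 0.79), Agtrap (0.20 ± 0.16 and -5.15 ± 0.16) and Haghl (0.20 ± 0.35 and -2.76 ± 0.35), the first value of each pair being SHRSP minus WKY. Hba-a3 and Ephx2 differed from WKY by -0.15 ± 0.33 and -0.10 ± 0.30 in SHRSP, and in SHR, where they were not well above background, they were at least 49.4-fold and at least 13.3-fold lower than in WKY. For Vegfb the order was turned, at least 368-fold lower than in WKY for SHRSP and 0.14 ± 0.18 from it for SHR. Uts2 lay above WKY in SHRSP and below it in SHR (1.67 ± 0.41 and -2.40 ± 0.41, adjusted p = 0.0079 and 0.0006). Among the falls, Ell2 differed from WKY by -0.19 ± 0.32 in SHRSP and by 2.80 ± 0.32 in SHR. Stard4 and Zfp597 differed from WKY by -0.52 ± 0.11 and 0.29 ± 0.08 in SHRSP and by 2.34 ± 0.11 and 3.00 ± 0.08 in SHR. Nfe2l3 and Serhl2 were below WKY in SHRSP by 2.22 ± 0.21 and 2.22 ± 0.14, and were not called in SHR, where they differed from WKY by 0.49 ± 0.21 and 0.33 ± 0.14. Across all genes, 4991 (23.9%) were called in SHRSP against WKY and 6081 (29.1%) in SHR against WKY.

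Chaperones and genes of the unfolded protein response made up the list with most calls. Of 36 measured members, 17 were lower and 1 higher in SHRSP, beside 8.2% and 6.73% of all genes, and 32 had a difference below 0. The median was -0.31, beside -0.11 for all genes, and was -0.29 within slide 2 and -0.30 within slide 5. As the median of all genes lay below 0, counts of members below 0, here and in later lists, include that shift. Dnaja1, a co-chaperone of Hsp70 chaperones, was at 2.87, 2.87 and 2.58 in SHRSP, against 4.29, 4.11 and 4.16 in SHR (-1.42 ± 0.13, adjusted p = 7.92e-06). Atf4, the transcription factor of the integrated stress response, was at 3.24, 2.94 and 2.90 in SHRSP, against 4.14, 4.09 and 4.30 in SHR (-1.15 ± 0.15, adjusted p = 0.000193), and Bag3, a co-chaperone of selective autophagy, differed by -0.92 ± 0.13. Hspa8, the constitutive heat shock cognate, named after its values were seen for its promoter sequence, differed by -0.65 ± 0.14 (adjusted p = 0.00603, and 0.0827 in the 6 arrays alone). The member that rose was Ddit3, which encodes the stress-induced factor CHOP. At 3 weeks the list had 1 higher and 3 lower members and a median of 0.06, and 12 members were called between the ages, each with the more negative strain difference at 6 weeks. The lower count was 11 after quantile normalization and 7 in the 6 arrays alone, and 13 to 16 without 1 of the 6 arrays.

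Of 32 genes of cholesterol synthesis, uptake and storage, 9 were called lower in SHRSP and 0 higher, beside 8.2% and 6.73% of all genes, and 24 had a difference below 0. The median was -0.15, beside -0.11 for all genes. It was -0.35 within slide 2 and -0.13 within slide 5, beside -0.11 and -0.06 for all genes, and lay at -0.23 with slide as a block and -0.24 without SHR replicate 3. Besides Stard4, Insig1, which retains the sterol sensor in the endoplasmic reticulum, was at 0.15, -0.02 and -0.06 in SHRSP, against 2.44, 2.06 and 2.41 in SHR (-2.28 ± 0.21, adjusted p = 1.12e-05). The called members also included Hmgcs1, Idi1, Msmo1, Mvd and Srebf2, enzymes of cholesterol synthesis and the transcription factor that drives it. At 3 weeks Insig1 differed by -0.16 ± 0.21. Of the list, 8 members were called between the ages, all with the more negative strain difference at 6 weeks. The lower count ran from 7 to 13 over the alternatives in which the lists were counted again.

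Immediate early genes, switched on within minutes of a stimulus, had 11 of 31 members lower and 0 higher, beside 8.2% and 6.73% of all genes. In this list 24 members lay below 0, and the median was -0.49, beside -0.11 for all genes. The median was -0.23 within slide 2 and -0.76 within slide 5. Maff, a small Maf transcription factor, was at -5.66, -6.32 and -5.92 in SHRSP, against -4.50, -4.28 and -4.11 in SHR (-1.67 ± 0.25, adjusted p = 0.000538). Arc differed by -1.21 ± 0.17, Ier3, a survival gene, by -1.36 ± 0.25, and Myc by -1.35 ± 0.26 (adjusted p = 0.000351, 0.00221 and 0.00288). Nr4a1, an orphan nuclear receptor induced by ACTH, was at 0.78, 0.78 and 0.68 in SHRSP, against 2.01, 3.09 and 4.42 in SHR, and 2.79, 4.89 and 5.12 in WKY. Its difference of -2.42 ± 0.68 was called (adjusted p = 0.0261) but not without any 1 of the SHRSP arrays, nor without SHR replicate 2 or 3, with slide as a block or in the 6 arrays alone, with adjusted p between 0.0597 and 0.121. Without SHR replicate 3 the list had 7 lower members and a median of -0.23, and in the 6 arrays alone also 7. At 3 weeks the list had 3 lower and 0 higher members and a median of -0.42.

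Glucocorticoid response genes had 7 of 19 members lower and 0 higher, beside 8.2% and 6.73% of all genes. In this list 17 members lay below 0, and the median was -0.46, beside -0.11 for all genes. Fkbp5, a co-chaperone of the glucocorticoid receptor that corticosterone induces, was at 0.25, 0.37 and 0.16 in SHRSP, against 1.45, 1.5 and 1.40 in SHR, and 0.24, 0.52 and 0.63 in WKY. Its difference was -1.19 ± 0.11 (adjusted p = 7.92e-06), and 0.23 ± 0.11 at 3 weeks (adjusted p = 0.226). Klf9 differed by -0.49 ± 0.11 (adjusted p = 0.00725, and 0.0549 in the 6 arrays alone). Ddit4, an inhibitor of the growth kinase mTOR, differed by -1.69 ± 0.40 (adjusted p = 0.0106, and 0.0551 without SHR replicate 3). The count of lower members was 4 without SHRSP replicate 1 or 3, 2 without SHR replicate 3 and 3 in the 6 arrays alone.

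**Figure D3:**
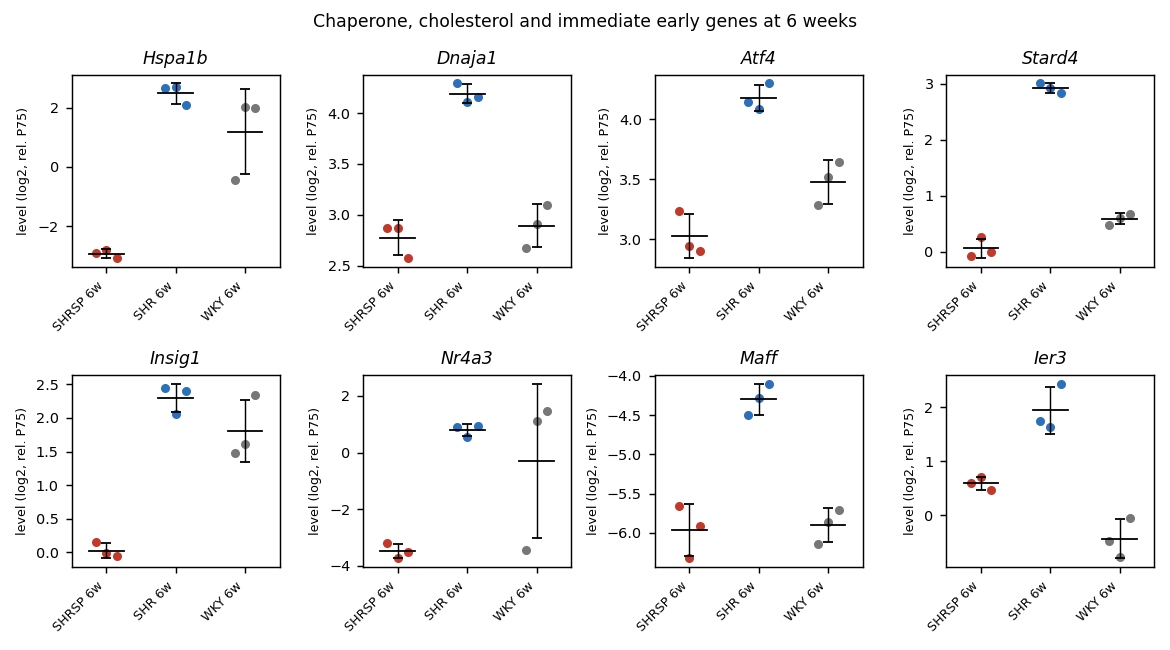
Levels of 8 genes at 6 weeks in SHRSP, SHR and WKY (y axis, log2 relative to the array's 75th percentile, with a separate scale for each gene). The panels run from stress and chaperone genes (Hspa1b, Dnaja1, Atf4) to cholesterol genes (Stard4, Insig1) and immediate early genes (Nr4a3, Maff, Ier3), points are arrays, horizontal lines means and bars 1 SD. In each panel the 3 SHRSP arrays lie below the 3 SHR arrays, and for Hspa1b and Nr4a3 WKY replicate 1 lies apart from the other 2 WKY arrays.

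The promoters of 2 called genes are shown because they hold the motif for which their list is known. Each is the 250 bases before the gene's start in the RefSeq table of the rat assembly GRCr8, with the motif in capitals: the cAMP response element TGACGTCA in Maff (chr7:112792537-112792786, plus strand) and the heat shock element GAANNTTCNNGAA, or its reverse complement, in Hspa8 (chr8:50080264-50080513, plus strand). Both strands were searched in 27457 promoters. The cAMP response element stood in 1.70% of them and in 4 of the 7 lower immediate early genes that had a promoter in the table, Maff, Ier2, Jund and Dusp1. The heat shock element stood in 0.597% of all promoters and in 2 of the 14 lower chaperone genes with a promoter, Hsph1 and Hspa8. The core CACCCCAC of the sterol element stood in 2.24% of all promoters and in 0 of the 6 lower cholesterol genes with a promoter. The members of these lists that were not called were not counted apart, so these shares say nothing about the strain difference. A match describes these letters only.
Maff promoter: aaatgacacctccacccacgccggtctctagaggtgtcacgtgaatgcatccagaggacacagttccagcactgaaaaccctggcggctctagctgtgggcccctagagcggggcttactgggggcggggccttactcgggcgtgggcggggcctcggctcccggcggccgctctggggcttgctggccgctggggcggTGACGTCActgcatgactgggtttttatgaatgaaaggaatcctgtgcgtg
Hspa8 promoter: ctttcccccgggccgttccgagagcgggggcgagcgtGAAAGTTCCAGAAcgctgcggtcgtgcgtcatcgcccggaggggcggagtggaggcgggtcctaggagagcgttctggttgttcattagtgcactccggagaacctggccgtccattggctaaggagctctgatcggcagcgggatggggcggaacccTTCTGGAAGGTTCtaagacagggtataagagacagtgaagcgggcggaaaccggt

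Of 25 members of the list for steroid hormone synthesis, 2 were called lower and 0 higher, which is near the 8.2% called lower among all genes. In the list 21 members lay below 0, the median was -0.18, and with slide as a block 4 were called lower and 1 higher. Star, which carries cholesterol into mitochondria, was at 6.18, 6.16 and 6.14 in SHRSP, against 6.38, 6.32 and 6.45 in SHR, without overlap but not called (-0.22 ± 0.08, adjusted p = 0.0952). Cyp11b1, the last enzyme of corticosterone synthesis, differed by -0.16 ± 0.08 (adjusted p = 0.241), Cyp11b2, the aldosterone synthase, by -0.25 ± 0.13 (adjusted p = 0.22), and Cyp21a1, the 21-hydroxylase, by -0.05 ± 0.08 (adjusted p = 0.722). The other probes of Star and Cyp11b1 differed by -0.53 and -0.48. Nr0b1, a repressor of steroidogenic genes, differed by -0.15 ± 0.21 between the strains, while it lay 2.62 ± 0.21 below WKY in SHRSP and 2.47 ± 0.21 below WKY in SHR. The called members were Nr4a1 and Cyb5a, a cytochrome b5 gene (-0.42 ± 0.12, adjusted p = 0.0297). The call of Cyb5a was lost without any 1 of the arrays other than SHR replicate 3 (adjusted p between 0.0559 and 0.0935) and after quantile normalization (adjusted p = 0.234), so that the list had 0 called members without SHRSP replicate 1 or SHR replicate 2.

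In the list for the zona glomerulosa, the aldosterone-making outer zone, 1 of 20 members was higher and 1 lower. This is 10% called, beside 14.9% of all genes. Agtr1b, an angiotensin II receptor of the rat adrenal, rose by 0.80 ± 0.19 (adjusted p = 0.0102), and Axin2, a Wnt target, fell by 0.50 ± 0.12 (adjusted p = 0.0143). Neither was called without SHRSP replicate 1 (adjusted p = 0.0523 and 0.0713) or in the 6 arrays alone (adjusted p = 0.0524 and 0.068). Chromaffin and catecholamine genes had 1 of 35 members higher and 0 lower, or 2.86% called, beside 14.9% of all genes. Th, the rate-limiting enzyme of catecholamine synthesis, differed by 0.08 ± 0.13, Dbh by -0.19 ± 0.17 and Pnmt, which forms adrenaline, by 0.06 ± 0.12 (adjusted p = 0.694, 0.499 and 0.755). The called member was Ddc, the decarboxylase between Th and Dbh, at 0.30 ± 0.08 (adjusted p = 0.0281), a call lost without SHRSP replicate 1 or 3 or without SHR replicate 2 or 3, and in the 6 arrays alone (adjusted p between 0.056 and 0.167). The probe of Th gave 4.53, 4.09 and 4.26 in SHRSP, against 4.11, 4.02 and 4.50 in SHR, so the strains overlapped.

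Genes of the renin-angiotensin system, ion transport and blood pressure moved both ways, with 6 of 42 higher and 4 lower. Among all genes 6.73% were higher and 8.2% lower. After Agtrap, the largest rise among the members named was in Adm, the gene of the vasodilator adrenomedullin, which was at 2.13, 2.45 and 2.08 in SHRSP, against 1.01, 1.02 and 0.88 in SHR (1.25 ± 0.19, adjusted p = 0.000619). Aplnr, the apelin receptor, rose by 0.76 ± 0.12 (adjusted p = 0.000831). Atp1b1, a subunit of the sodium pump, was at 3.11, 3.10 and 3.12 in SHRSP, against 3.69, 3.75 and 3.66 in SHR (-0.59 ± 0.08, adjusted p = 0.000162), and at 3 weeks it differed by -0.53 ± 0.08, so its direction was the same at both ages. Without SHRSP replicate 1 the counts were 3 higher and 2 lower, and in the 6 arrays alone 4 and 1. The list of genes linked to SHR or SHRSP in the literature had 4 of 27 higher and 5 lower, beside these same shares. Its called members included Agtrap, Ephx2, Serpinc1 and Vegfb. Like the other lists, it was chosen with earlier results of these data known, so its counts do not test the literature. Of the other genes named from it, Cd36, a fatty acid transporter for which a deletion is known in some SHR lines, differed by 0.32 ± 0.15 and Gstm1, a glutathione transferase, by 0.08 ± 0.12, neither called. Cd36 lay 1.24 ± 0.15 below WKY in SHRSP and 1.55 ± 0.15 below it in SHR. This list had 5 higher and 2 lower members without SHR replicate 3, 4 and 3 without SHRSP replicate 3, and 3 and 2 in the 6 arrays alone.

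**Figure D4:**
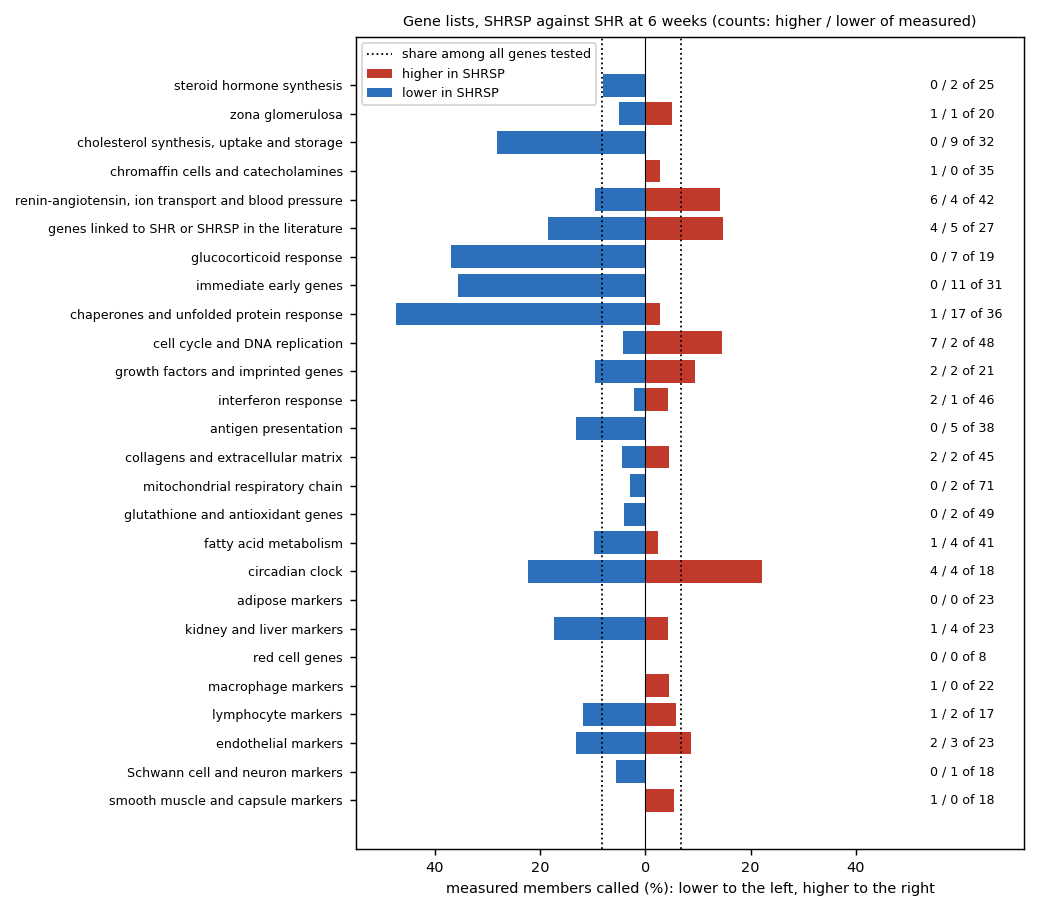
Share of the measured members of each gene list that were called in SHRSP against SHR at 6 weeks, in percent, lower in SHRSP to the left and higher to the right, with the counts at the right edge. The dotted lines mark the shares among all genes tested, 8.2% lower and 6.73% higher. Lower shares stand farthest from the dotted line for chaperones, glucocorticoid response genes and immediate early genes.

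Antigen presentation genes had 5 of 38 members lower and 0 higher, beside 8.2% and 6.73% of all genes, and 37 of 38 lay below 0, with a median of -0.20. The median was -0.03 within slide 2 and -0.23 within slide 5, beside -0.11 and -0.06 for all genes. Ciita, the master regulator of MHC class II genes, was at -6.29, -6.30 and -6.85 in SHRSP, against -4.87, -4.42 and -4.64 in SHR (-1.84 ± 0.20, adjusted p = 3.49e-05). The RT1 genes are the rat MHC genes, and near-identical copies may share their probes. RT1-Db1, a class II chain, differed by -0.76 ± 0.19 and RT1-M3-1, a class I gene, by -0.48 ± 0.08 (adjusted p = 0.0148 and 0.000869). Neither was called in the 6 arrays alone (adjusted p = 0.129 and 0.0667), nor RT1-Db1 without SHRSP replicate 2 or 3 or SHR replicate 3 (adjusted p between 0.0594 and 0.073). The lower count was 8 without SHRSP replicate 1, 2 without SHRSP replicate 2, SHRSP replicate 3 or SHR replicate 3, 3 without SHR replicate 2 and 1 in the 6 arrays alone. Interferon response genes had 2 of 46 higher and 1 lower, or 6.52% called, beside 14.9% of all genes. Cxcl10, a chemokine for T cells, was at -1.74, -1.36 and -1.18 in SHRSP, against -3.12, -2.34 and -2.64 in SHR (1.27 ± 0.31, adjusted p = 0.0114).

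The called markers of immune cells moved both ways. Of 22 macrophage markers, 1 was higher and 0 lower, beside 6.73% and 8.2% of all genes. In that list 18 markers lay below 0 and 4 above, with a median of -0.19, beside -0.11 for all genes. The called member went against this direction. It was Msr1, a scavenger receptor, at -4.79, -5.14 and -5.26 in SHRSP, against -6.58, -6.54 and -6.07 in SHR (1.34 ± 0.18, adjusted p = 0.000187). Without SHRSP replicate 1, where 8 antigen presentation genes were lower, 3 macrophage markers were lower too. The median of the macrophage list was 0.15 within slide 2 and -0.33 within slide 5. Of 17 lymphocyte markers, 1 was higher and 2 lower, while 12 lay below 0 and 5 above, with a median of -0.19. Zap70, a kinase of T cell receptor signalling, was at -3.03, -3.03 and -3.12 in SHRSP, against -1.5, -1.65 and -1.83 in SHR (-1.40 ± 0.11, adjusted p = 2.21e-06), whereas Il2rb, an interleukin 2 receptor chain, rose by 1.06 ± 0.12 (adjusted p = 4.11e-05). The summed level of the macrophage list ran from 5.0 to 5.60 in SHRSP and from 5.48 to 5.63 in SHR. That of the lymphocyte list ran from 0.70 to 0.88 in SHRSP and from 0.93 to 1.1 in SHR. Every marker of these 2 lists was well above background on at least 1 SHRSP and 1 SHR array. The part of these cells in the antigen presentation values was not tested.

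Cell cycle and DNA replication genes had 7 of 48 members higher and 2 lower, beside 6.73% and 8.2% of all genes. In this list 40 members lay above 0, and the median was 0.32, beside -0.11 for all genes. Mcm7 and Mcm2, subunits of the replicative helicase, rose by 0.40 ± 0.08 and 0.73 ± 0.14, and the mitotic kinase gene Aurka fell by 0.60 ± 0.12 (adjusted p = 0.00277, 0.00351 and 0.0034). Their calls were lost in the 6 arrays alone (adjusted p = 0.0616, 0.0567 and 0.0835). The higher count was 2 without SHRSP replicate 2, 3 without SHR replicate 2, 4 without SHRSP replicate 1, SHR replicate 1 or SHR replicate 3, 2 after normexp, 4 with slide as a block and 1 in the 6 arrays alone, and the median was 0.30 within slide 2 but 0.05 within slide 5. At 3 weeks the cell cycle list had 7 higher and 0 lower members, beside 4.72% and 3.19% of all genes. Its median there was 0.46, beside 0.09 for all genes, so the list lay in the same direction at both ages. Circadian clock genes had 4 of 18 higher and 4 lower at 6 weeks, beside 6.73% and 8.2% of all genes. The clock output factor Tef rose by 0.89 ± 0.15, and Npas2, a partner of Bmal1, and Rora fell by 0.78 ± 0.14 and 0.59 ± 0.11 (adjusted p = 0.00125, 0.00156 and 0.00253). Npas2 was at -2.44, -2.37 and -2.67 in SHRSP, against -1.71, -1.71 and -1.73 in SHR, and at 0.99, 1.08 and 0.46 in WKY. The hour at which glands were taken is not given, so its part was not tested.

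Fatty acid metabolism had 1 of 41 members higher and 4 lower, with Ppard, a lipid-sensing nuclear receptor, at -1.09 ± 0.14 and Cpt1a, the gate to mitochondrial fatty acid oxidation, at 0.55 ± 0.12 (adjusted p = 0.000133 and 0.00735, the second 0.123 in the 6 arrays alone). Growth factors and imprinted genes had 2 of 21 higher and 2 lower, including Vegfb and the imprinted gene Phlda2 (1.21 ± 0.16). Collagens and other matrix genes had 2 of 45 higher and 2 lower, the respiratory chain 0 of 71 higher and 2 lower, and glutathione and antioxidant genes 0 of 49 higher and 2 lower. Endothelial markers had 2 of 23 higher and 3 lower, smooth muscle and capsule markers 1 of 18 higher and 0 lower, and Schwann cell and neuron markers 0 of 18 higher and 1 lower, Tubb3, a neuronal tubulin (-1.70 ± 0.34, adjusted p = 0.00366). Among all genes 6.73% were higher and 8.2% lower. Such small counts as those of these lists were sensitive to single arrays. With 1 of the 6 arrays left out, the lower members numbered 2 to 4 in fatty acid metabolism, 1 to 4 in the respiratory chain and 1 to 2 in the glutathione list, and with slide as a block 7, 7 and 6. Matrix genes then had 1 to 3 higher and 0 to 3 lower members, and endothelial markers 0 to 2 higher and 2 to 3 lower.

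No adipose marker was called among 23, with a median of 0.36 that was -0.01 without SHR replicate 1 and 0.69 without SHR replicate 3, and a summed level from 6.04 to 6.60 in SHRSP and from 5.61 to 6.32 in SHR. None of the 8 red cell genes was called either, and their summed level ran from 7.16 to 7.66 in SHRSP and from 7.36 to 7.43 in SHR, beside the difference in Hba-a3. Kidney and liver markers had 1 of 23 higher and 4 lower, beside 6.73% and 8.2% of all genes. Serpinc1, the 1 higher member, stands in that list, whose summed level ran from 4.30 to 4.45 in SHRSP and from 1.88 to 2.24 in SHR. Serpinc1 alone carried this gap: without it the sum ran from 1.72 to 2.05 in SHRSP and from 1.88 to 2.23 in SHR. The other members called were lower in SHRSP, such as the renal salt transporter gene Slc12a3 (-0.67 ± 0.14, adjusted p = 0.00431, and 0.0619 in the 6 arrays alone). The single sex chromosome gene measured was not called, so the sex of the rats was not tested.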

How the data were processed

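Total RNA of rat adrenal glands was hybridised to 18 one-colour Agilent arrays, 3 for each of 3 strains at 2 ages. The authors deposited processed signal intensity on a linear scale from Agilent Feature Extraction 10.5.1.1, per the file headers and the submitters' processing notes. Per the file headers it was detrended within the array without local background subtraction, dim values were replaced by surrogates, and no normalization between arrays was applied. The deposited series table held the same intensities, with a largest difference of 0.

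Here, log2 of the intensity minus the array's 75th percentile was used. Control and outlier spots were left out and repeated spots averaged. Of 30367 probes, 17328 were renamed through accessions in a RefSeq table (GRCr8). The brightest probe stood for a gene, and 20868 genes were tested, those with signal well above background throughout 1 or more of the 6 groups (186 lacked a value on an array and were fitted without it). A probe counted as well above background on an array where at least 0.5 of its repeated spots did. One model of 6 group means was fitted with limma 3.58.1 in R 4.3.3 (12 residual and 2.12 prior degrees of freedom), with Benjamini-Hochberg adjustment over all genes. Tables were handled with pandas 2.3.3 in Python 3.11.15. With 3 arrays to a group, array number sets the precision. In simulated data for this comparison with 20682 genes, 39 of 50 genes changed by a log2 value of 1 and 20 of 50 changed by 0.5 were called, and 6 unchanged genes. The simulation drew independent noise and changed a far smaller share of genes than the 14.9% called in the data. These counts therefore need not hold for the data.

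The comparison, its members and the gene lists were chosen with earlier results of these data known, and list counts carry no test. Genes named are the 12 largest rises and falls among called genes with a symbol and no overlap between the strains, the 6 largest each way in the comparison of the ages, called list members with the smallest adjusted p (up to 4 a list), and 14 genes given whatever their result; a few genes that meet this rule are not reported here. Hspa8, Tent5c, MGC94891, XM_001058955, Hba-a1 and Hbb were named after their values were seen. No text given here says which part of a gene (exon or UTR) a probe covers, and no rn4 annotation was used here. Alternatives were normexp background correction, quantile or median scaling, other filters, outlier spots kept, all probes averaged, slide or replicate number as a block, the 6 arrays alone and leaving out each array.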

Additional observations from a re-analysis of the deposited data

Results flagged for a closer look

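The strain difference itself differed between the ages for the genes below, by limma's test of the 6-week minus the 3-week difference (adjusted p under 0.05). The value in parentheses is that log2 difference, SHRSP minus SHR at 6 weeks minus the same at 3 weeks, with 3 arrays in each of the 4 groups. Where a group had no array well above background the value is a bound, with that group put at the floor used for the folds above, and is given as at least or at most.

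Positive values included those of Serpinc1 (18.10), Hba-a3 (at least 11.86), Agtrap (10.21), Uts2 (7.76), Ephx2 (at least 6.98) and Lilrb3l (at least 5.0). Other positive values belonged to Haghl (5.83), Lilrc2 (at least 1.53), Aspg (4.75), Cbs (4.63), Phldb3 (3.48), Perm1 (3.46) and Cxcl10 (2.14), and then to Phlda2 (1.95), Msr1 (1.83), Npas2 (1.42), Adm (1.06), Nr0b1 (1.02), Il2rb (0.91), Cpt1a (0.81) and Ddc (0.55).

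Negative values included those of Vegfb (at most -17.12), XM_001058955 (-6.69), Zfp597 (-5.82), Nfe2l3 (-5.33) and Stard4 (-5.17). They were followed by Serhl2 (-5.16), Hes1 (-3.95), Hspa1b (-3.25), Sbk2 (-2.59, its probe not well above background in SHRSP at 6 weeks), Ciita (-2.20), Insig1 (-2.12), Zap70 (-2.02) and Lrrc58 (-1.89). Smaller negative values belonged to Ell2 (-1.65), Maff (-1.63), Dnaja1 (-1.59), Fkbp5 (-1.42), RT1-Db1 (-1.40), Axin2 (-1.23) and Ppard (-1.20), and then to Ier3 (-1.19), Atf4 (-1.03), Aurka (-0.98), Hspa8 (-0.93), Vegfa (-0.67), Cyp11b2 (-0.65), Star (-0.64) and Bag3 (-0.62).

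For the genes in the first sentence of each group the 2 strain differences had opposite signs. Genes in the later sentences went both ways: Haghl, Cbs and Serhl2, for example, had opposite signs, while Npas2 and Ell2 kept theirs. The exchange of labels raised with the sign of these differences was not tested. Of all genes tested, 11.9% were called in this comparison.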

How the results depend on the processing

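The count of 3117 genes called at 6 weeks stayed within 1.5 times under every alternative except the fit of the 6 arrays alone, which called 1218 and had fewer samples to estimate the spread. Without 1 of the 6 arrays it ran from 2171 to 2953. It was 3952 with slide as a block, of which 2807 were also called without it, and 2897 after quantile normalization, of which 2525 were also called with the percentile. The 2483 genes called between the ages became 4190 with slide as a block; the cause was not tested. They ran from 1692 to 2789 without 1 of the 6-week arrays, and from 1675 to 2331 without 1 of the 3-week SHRSP or SHR arrays, an alternative added after seeing the data. With a replicate block, 3327 genes were called at 6 weeks and 2754 between the ages, but the numbers do not pair all the samples: deviations of same-numbered SHRSP and SHR arrays correlated at 0.58 and 0.55 for replicates 1 and 3, which also share slides 2 and 5, and at 0.02 for replicate 2, on 2 different slides. The alternatives were counted for 107 genes, 95 of them called, chosen by the naming rule or named after their values were seen. No called gene among them changed its sign. Of 1697 pairs of such a gene and an alternative, 1534 kept their side of the threshold, 159 lost the call and 4 gained one. A gene called in neither fit counted as keeping its side whatever its sign. For 31 genes called higher with no SHR array well above background and 23 called lower with no SHRSP array well above it, signal over background limits the difference to a bound.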
